A study of Mus musculus with 33 samples.

Results

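The genes described here encode the proteins of the mitochondrial ribosome, measured by RNA sequencing in myeloid progenitor and precursor populations sorted from mouse bone marrow. They were taken by name, as every row of the deposited count table whose mouse symbol starts with Mrpl or Mrps and a digit, leaving out the 5 such symbols that contain -ps. This gave 78 members among 54752 rows, of which 51 encode large-subunit proteins and 26 small-subunit proteins. Mrps30 and Mrps18a carry small-subunit names but encode proteins of the large subunit, and were counted there. Mrps36 was counted in neither subunit, because its product is now known as a component of the alpha-ketoglutarate dehydrogenase complex. Of the 78 members, 77 passed the filter on low counts and were tested among 18198 genes. The exception was Mrpl53, which had 0 counts in all 33 libraries, which allows at most 7.5e-06% of the counts of the deepest library, counting error only. A same-strand gene, Gm42688, covers 695 exon bases of Mrpl53, or 88.0% of its exon length. Reads in those bases may not have been assigned to Mrpl53, so the limit from its 0 counts may not hold for its transcripts.

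The mitochondrial ribosome translates the few messenger RNAs of the mitochondrial genome, all of which encode core subunits of the respiratory chain and the ATP synthase. Its ribosomal RNAs are made inside the organelle, whereas all its proteins are encoded in the nucleus, made on cytosolic ribosomes and imported, so assembly draws on both genomes. Some of its proteins have counterparts in bacterial ribosomes and others are specific to mitochondria. Mature neutrophils are known for relying mainly on glycolysis and for holding few mitochondria.

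Each of 11 groups held 3 libraries that the labels call biological replicates, so p-values measure the spread between those samples. In septic mice, killed 3 days after mid-grade CLP (caecal ligation and puncture, an operation that leaks gut contents into the abdomen), the sorted populations were Ly6C- granulocyte-monocyte progenitors (GMP), the early neutrophil progenitors proNeu1 and proNeu2, and preNeu, a later neutrophil precursor. The same 4 populations were sorted from control mice, called WT in the design text. The control series also held the monocyte path, with cMoP (common monocyte progenitor), TpMo (transitional pre-monocyte) and Ly6Chi monocytes, for which the labels give no sepsis samples. Strain, age and sex are not given in the sources used here.

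Library totals ran from 5517734 to 39977745 counts, and 5 libraries held at most 6781973 where all others held at least 17237611: control proNeu1 replicate 1, control preNeu replicate 3, Ly6Chi monocyte replicate 2, septic proNeu1 replicate 1 and septic preNeu replicate 3. Levels are given as CPM, counts per 1000000 of the library total scaled by edgeR's TMM method, and so are shares of the RNA sequenced and not amounts per cell. Summed dividing-cell markers, such as Mki67 and Top2a, were 5079.9 to 7343 CPM in control preNeu, against 3343 to 3378 CPM in control proNeu2. Summed neutrophil granule genes were lower in septic than in control libraries of all 4 populations, for example 32704 to 38697 CPM in septic proNeu1, against 77187 to 82704 CPM in control proNeu1. Monocyte markers such as Csf1r and Ly6c2 summed to 707 to 1604 CPM in control preNeu, against 12929 to 13515 CPM in TpMo, and granule genes to 94037 to 120468 CPM in control preNeu, against 2526 to 2678 CPM in TpMo. Y-linked transcripts summed to 180 to 253 CPM in the 3 monocyte-path groups and to at most 1.56 CPM in the other groups. Sex therefore cannot be told apart from cell path in any comparison between cMoP or TpMo and the neutrophil-path or GMP libraries.

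As a family, the members were most abundant in progenitors and least abundant in the latest population sorted on each path. Their summed level was 3942 ± 395 CPM for septic GMP, 3553 ± 189 CPM for septic proNeu1, 3396 ± 159 CPM for septic proNeu2 and 2425 ± 120.4 CPM for septic preNeu (SD, n = 3 each). In control mice it was 3341 ± 176 CPM for GMP, 3606 ± 276 CPM for proNeu1, 3332 ± 145 CPM for proNeu2 and 1984 ± 145 CPM for preNeu (SD, n = 3 each). Along the monocyte path it was 3105 ± 146 CPM for cMoP, 2414 ± 44.6 CPM for TpMo and 1968 ± 40.7 CPM for Ly6Chi monocytes (SD, n = 3 each). The groups fell into bands: the 7 GMP, proNeu and cMoP groups ran from 2942 to 4241 CPM per library, with neighbouring groups overlapping. Septic preNeu, at 2317 to 2555 CPM, overlapped TpMo, at 2366 to 2455 CPM. Control preNeu, at 1846 to 2135 CPM, overlapped Ly6Chi monocytes, at 1924 to 2005 CPM, below every library of the other groups. In bulk samples, fewer cells of a type and less RNA per cell cannot be told apart.

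**Figure D1:**
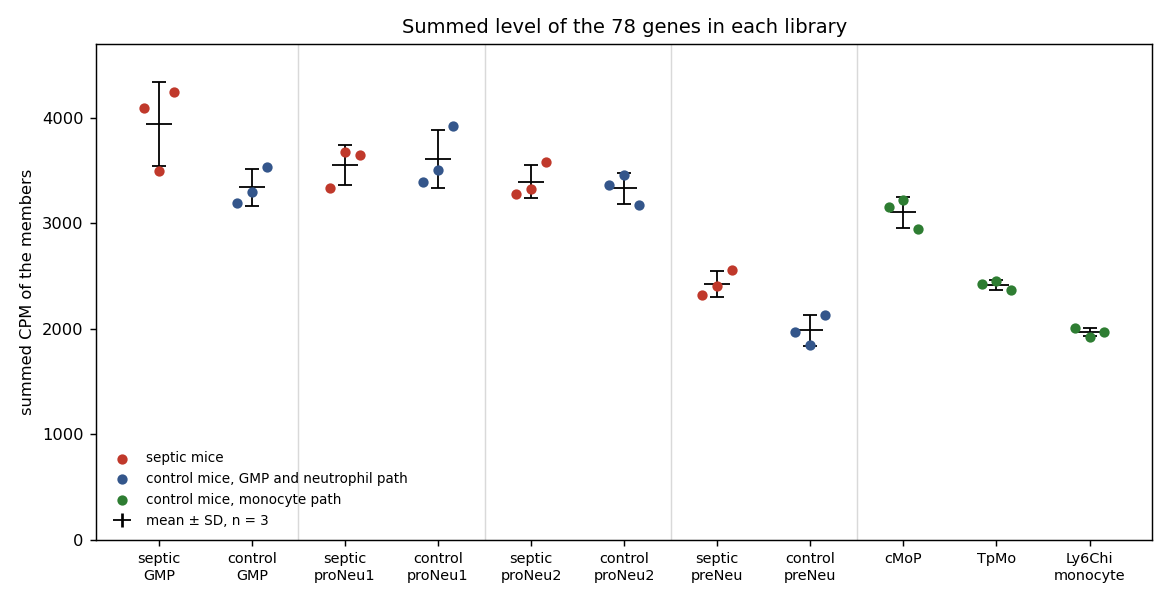
Summed CPM of the 78 members (vertical axis) in each of 33 libraries, by sorted group (horizontal axis). Points are libraries, red for septic mice, blue for control GMP and neutrophil-path cells and green for the monocyte path; bars are means ± SD, n = 3. Control preNeu and Ly6Chi monocytes sit lowest, between 1846 and 2135 CPM, and septic GMP reaches 4241 CPM.

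Per kilobase of gene model and averaged over all libraries, the members with counts spanned a 55.1-fold range around a median of 10.98 CPM per kilobase. Mrpl28 stood highest at 109 CPM per kilobase, followed by Mrpl44, whose protein sits in the large subunit, at 58.4, then Mrpl18, which contacts the central protuberance of the large subunit, at 52.6. Mrpl2, a protein close to the peptidyl transferase centre, averaged 52.4 CPM per kilobase. Below all other members but Mrpl53 lay Mrpl52, Mrps6 and Mrpl23. This order depends on the length of the gene model. Mrpl23 averaged 10.9 CPM on a model of 4883 bases, or 2.24 CPM per kilobase. Mrpl34 averaged 8.57 CPM on 607 bases, or 14.1 CPM per kilobase. By group mean, septic GMP was the highest group for 27 members and control proNeu1 for 19, whereas control preNeu was the lowest for 32 members and Ly6Chi monocytes for 31. The matching shares over all genes tested are not given here, so these counts do not show a trait of the members alone.

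Between the early neutrophil stages of control mice, few members, and few genes of any kind, were called. From GMP to proNeu1, 2 of 77 members rose and 0 fell by edgeR's quasi-likelihood test with Benjamini-Hochberg adjustment, where 3.59% of all genes tested rose and 2.45% fell. Mrpl44, a large-subunit protein with a ribonuclease III-like fold, had 98.3, 128 and 138 CPM in control proNeu1, against 78.6, 79.2 and 73.2 CPM in control GMP (log2 fold change 0.66 ± 0.14 SE, edgeR adjusted p = 0.00268). Mrpl19 had 120.0, 152 and 184 CPM in control proNeu1, against 88.6, 101 and 96.0 CPM in control GMP (log2 fold change 0.67 ± 0.17 SE, edgeR adjusted p = 0.0105). For both genes all proNeu1 libraries lay above all GMP libraries. Markers of other cells differed in both directions. B cell markers, with none called, summed to 967 to 2066 CPM in control proNeu1, against 305 to 439 CPM in control GMP. T and NK cell markers, with none called, summed to 901 to 984 CPM in control proNeu1, against 527 to 768 CPM in control GMP. Eosinophil markers (6 of 6 called lower) summed to 26.1 to 45.8 CPM in control proNeu1, against 4170.0 to 7662 CPM in control GMP. Basophil and mast cell markers (4 of 5 lower) summed to 694 to 713 CPM in control proNeu1, against 7837 to 10883 CPM in control GMP. Dendritic cell markers (5 of 5 tested lower) summed to 50.9 to 81.9 CPM in control proNeu1, against 2305 to 3259 CPM in control GMP, and the part of all these markers in the changes of the members was not tested. Gcfc2 covers 36.0% of the exon bases of Mrpl19, whose counts may hold reads of that gene or lack shared reads left unassigned. Over all libraries, the mean count of Gcfc2 was 0.0498 times that of Mrpl19. The call on Mrpl44 was lost without control proNeu1 replicate 3 (edgeR adjusted p = 0.0653). For Mrpl19 the call was lost without control GMP replicate 1, control proNeu1 replicate 2 or control proNeu1 replicate 3 (edgeR adjusted p up to 0.17), and also when scaled to total counts alone. Without control GMP replicate 1 or control proNeu1 replicate 2 the count was 1 higher, and without control proNeu1 replicate 3 it was 0 higher and 1 lower. The members' median log2 fold change was 0.07, and -0.06 when scaled to total counts alone.

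From proNeu1 to proNeu2, 1 member rose and 1 fell, where 1.57% of genes tested rose and 1.48% fell. In 1 member every proNeu2 library lay above every proNeu1 library and in 10 every one lay below, where 9.56% and 9.48% of genes tested did so. Mrps30, a large-subunit protein despite its name, averaged 75.1 CPM in control proNeu2, against 33.3 CPM in control proNeu1, with overlapping libraries (log2 fold change 1.16 ± 0.32 SE, edgeR adjusted p = 0.0417). Mrps2, a small-subunit protein with a bacterial counterpart, had 41.0, 22.4 and 23.9 CPM in control proNeu2, against 48.5, 59.1 and 51.3 CPM in control proNeu1, without overlap (log2 fold change -0.86 ± 0.22 SE, edgeR adjusted p = 0.0283). The call on Mrps30 was lost without control proNeu1 replicate 1, control proNeu1 replicate 2, control proNeu2 replicate 2 or control proNeu2 replicate 3 (edgeR adjusted p up to 0.196), and also when scaled to total counts alone, with no filter on low counts, when only the compared libraries were fitted and without the 5 shallow libraries. For Mrps2 the call was lost without control proNeu1 replicate 2, control proNeu1 replicate 3, control proNeu2 replicate 2 or control proNeu2 replicate 3 (edgeR adjusted p up to 0.166), and also when only the compared libraries were fitted. Scaled to total counts alone, 0 members rose and 2 fell. Leaving out 1 library gave counts from 0 to 3; it was 0 without control proNeu1 replicate 2, control proNeu2 replicate 2 or control proNeu2 replicate 3, and 1 without control proNeu1 replicate 1 or 3.

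The large change came at the next step, where 50 of 77 members fell and 1 rose in control preNeu relative to control proNeu2. Of all genes tested, 14.7% fell and 13.1% rose at this step. The members' median log2 fold change was -0.83, while the median over all genes tested lay between -0.06 and 0.01 in every comparison of groups in this study. Both subunits took part, with 34 of 50 tested large-subunit members lower, 15 of 26 small-subunit members lower, and Mrps36 lower too. In 53 members every preNeu library lay below every proNeu2 library, and in 2 every one lay above, where 18.2% and 17.5% of all genes tested did so. Leaving out any 1 library gave 47 to 52 called members, and fitting only the 6 libraries compared gave 36 lower and 0 higher. The part of the higher dividing-cell markers of preNeu in these falls was not tested.

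The 4 largest falls at 10 CPM or more were in Mrps28, Mrps18b, Mrps27 and Mrpl11. Mrps28, a small-subunit protein, had 2.74, 2.63 and 5.87 CPM in control preNeu, against 14.6, 16.7 and 15.2 CPM in control proNeu2 (log2 fold change -2.12 ± 0.30 SE, edgeR adjusted p = 2.54e-06). Mrps18b, 1 of the 3 relatives of the bacterial S18 protein, had 4.62, 5.15 and 8.02 CPM in control preNeu, against 22.5, 28.8 and 22.5 CPM in control proNeu2 (log2 fold change -2.09 ± 0.24 SE, edgeR adjusted p = 9.03e-08). The other relatives differed: Mrps18a fell by 1.00 on the log2 scale (edgeR adjusted p = 0.000654), whereas Mrps18c had a log2 fold change of -0.37 (edgeR adjusted p = 0.471). Mrps27, a small-subunit protein of the pentatricopeptide repeat class, had 13.1, 16.7 and 20.5 CPM in control preNeu, against 56.3, 57.3 and 63.8 CPM in control proNeu2 (log2 fold change -1.83 ± 0.22 SE, edgeR adjusted p = 1.77e-07). Mrpl11, at the base of the stalk that receives translation factors, had 9.01, 4.38 and 7.43 CPM in control preNeu, against 26.4, 26.3 and 18.6 CPM in control proNeu2 (log2 fold change -1.78 ± 0.29 SE, edgeR adjusted p = 1.92e-05). In these 4 genes no preNeu library reached the lowest proNeu2 library. Gm16279 on the opposite strand covers 30.5% of the exon bases of Mrps18b, and 6430562O15Rik overlaps 24.2% of those of Mrps27. Counts of Mrps18b and Mrps27 may hold reads of those genes or lack shared reads left unassigned. Over all libraries, the mean count of Gm16279 was 0.0588 times that of Mrps18b. That of 6430562O15Rik was 0.0231 times that of Mrps27.

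Among members chosen for their roles, Mrpl12, the stalk protein that receives translation factors, fell by 1.13 (edgeR adjusted p = 0.00321), and Mrps12, at the decoding centre, fell by 1.30 on the log2 scale (edgeR adjusted p = 0.000157). Mrps34 fell by 1.49 (edgeR adjusted p = 0.000176) and Mrps22 by 1.01 (edgeR adjusted p = 0.0012), both small-subunit proteins in which human mutations cause mitochondrial disease. Mapk8ip3 covers 63.4% of the exon bases of Mrps34, so the value of Mrps34 is uncertain. Mrpl37 and Mrps30, which neighbour each other in the large subunit, fell by 1.08 and 1.35 on the log2 scale (edgeR adjusted p = 2.39e-05 and 0.00182). Smaller log2 falls were those of Mrpl41, -0.87 (edgeR adjusted p = 0.00391), Mrpl44, -0.76 (edgeR adjusted p = 0.000109), and Mrpl3, which lies near the peptidyl transferase centre, -0.72 (edgeR adjusted p = 0.00775). Mrps36 had a log2 fold change of -1.24 (edgeR adjusted p = 0.023). Mrpl58, a peptidyl-tRNA hydrolase that rescues stalled ribosomes and is also built into the large subunit, had a log2 fold change of -0.52 (edgeR adjusted p = 0.0781). The call on Mrps36 was lost without control proNeu2 replicate 1, control proNeu2 replicate 2, control preNeu replicate 1 or control preNeu replicate 2 (edgeR adjusted p up to 0.115), and also with no filter on low counts and when only the compared libraries were fitted. Calls on Mrpl12 and Mrpl3 were lost when only the compared libraries were fitted. The only member that rose was Mrpl10, another stalk protein, with 68.8, 77.2 and 71.6 CPM in control preNeu, against 63.7, 46.3 and 46.8 CPM in control proNeu2 (log2 fold change 0.47 ± 0.14 SE, edgeR adjusted p = 0.0101). For Mrpl10 the call was lost without control proNeu2 replicate 2, control proNeu2 replicate 3 or control preNeu replicate 2 (edgeR adjusted p up to 0.0727), and also when scaled to total counts alone and when only the compared libraries were fitted.

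Promoter sequences are shown for the members with the largest falls that RefSeq (GRCm38.p6) lists, from 250 bases before to 50 bases after the start, because the members moved together at this step. They are Mrps18b (chr17:35916391-35916690, minus strand), Mrps27 (chr13:99344536-99344835, plus strand) and Mrpl11 (chr19:4962056-4962355, plus strand), each given 5′ to 3′ on the strand of the gene. Capitals mark exact matches on either strand to CCGGAAG, the core bound by ETS factors such as GABP, or to AAGATGGCG, the YY1 core. The Mrpl11 window holds neither.
Mrps18b: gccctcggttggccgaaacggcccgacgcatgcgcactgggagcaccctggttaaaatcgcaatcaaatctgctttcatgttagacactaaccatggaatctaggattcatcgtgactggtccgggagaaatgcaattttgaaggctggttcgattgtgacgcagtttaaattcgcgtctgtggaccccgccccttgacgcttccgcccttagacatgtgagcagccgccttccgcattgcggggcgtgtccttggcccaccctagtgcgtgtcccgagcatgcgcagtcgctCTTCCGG
Mrps27: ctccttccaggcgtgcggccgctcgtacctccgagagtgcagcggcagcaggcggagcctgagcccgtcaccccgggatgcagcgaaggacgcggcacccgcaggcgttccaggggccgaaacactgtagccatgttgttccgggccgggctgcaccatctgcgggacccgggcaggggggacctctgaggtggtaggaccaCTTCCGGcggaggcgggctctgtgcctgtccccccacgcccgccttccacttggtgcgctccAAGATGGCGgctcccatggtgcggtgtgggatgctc
Mrpl11: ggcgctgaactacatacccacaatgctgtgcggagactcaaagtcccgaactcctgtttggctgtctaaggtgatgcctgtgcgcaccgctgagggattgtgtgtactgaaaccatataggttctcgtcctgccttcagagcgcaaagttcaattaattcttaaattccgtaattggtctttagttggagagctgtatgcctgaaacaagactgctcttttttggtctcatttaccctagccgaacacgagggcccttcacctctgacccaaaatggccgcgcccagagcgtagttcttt

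**Figure D2:**
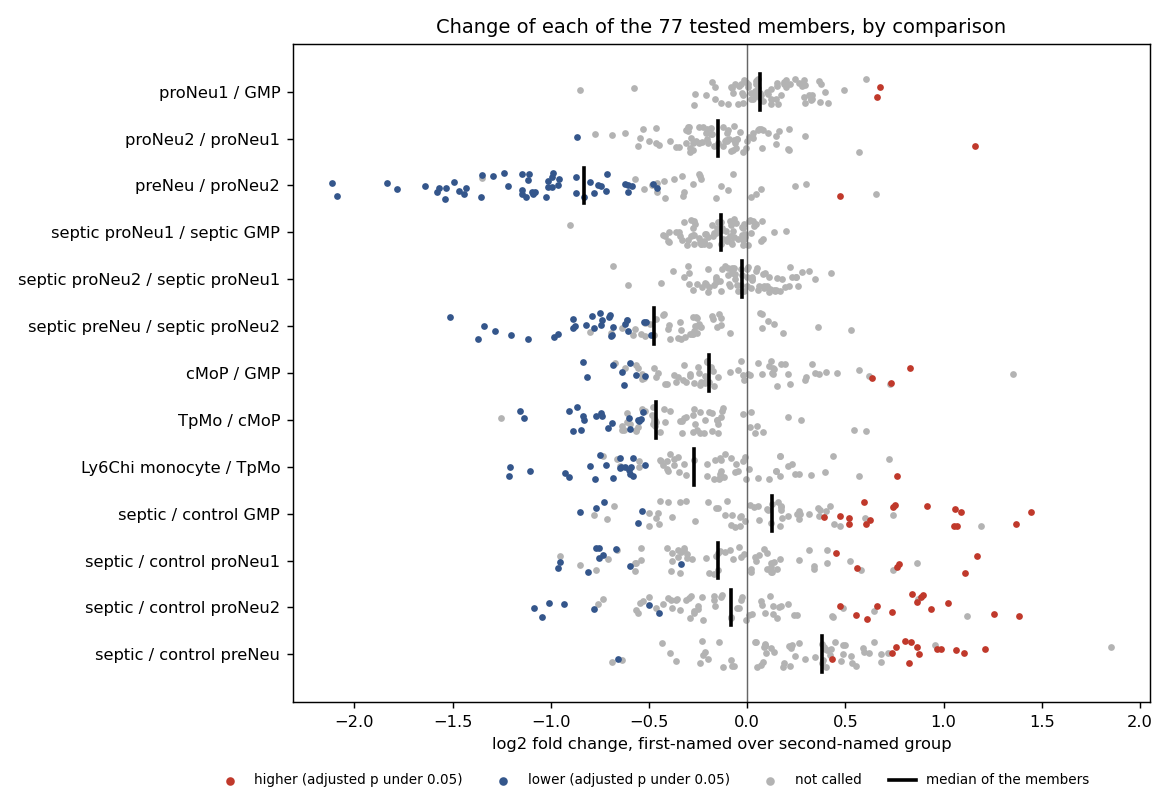
Log2 fold change (horizontal axis) of each of the 77 tested members in 13 comparisons (rows), first-named over second-named group. Red and blue points are members called higher and lower at an adjusted p under 0.05, grey points were not called, and black lines are medians. The preNeu step holds 50 blue points in control mice and 28 in septic mice, and septic over control rows hold both colours.

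In septic mice the same path gave 0 calls in either direction from septic GMP to septic proNeu1 and 0 from septic proNeu1 to septic proNeu2 by edgeR, with 1 member at an unadjusted p under 0.05 in each. DESeq2 gave 0 in both steps, and fitting only the 6 compared libraries gave 0 and 1. Few genes of any kind were called there: 0.830% higher and 0.456% lower in the first step, and 0.423% higher and 0.297% lower in the next. At septic preNeu against septic proNeu2, 28 of 77 members fell and 0 rose, where 8.38% of genes tested fell and 8.51% rose, and the members' median log2 fold change was -0.47. The 28 comprised 16 large-subunit and 12 small-subunit members. Of them, 24 were also among the 50 that fell in control mice, which is 85.7% of the septic list and 48.0% of the control list, against 50 of all 77 members in the control list; the other 4 were Mrpl15, Mrps2, Mrps23 and Mrps6. The septic count was 15 without septic proNeu2 replicate 3 or septic preNeu replicate 1.

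Mrpl12 had 13.4, 16.9 and 13.9 CPM in septic preNeu, against 37.4, 38.7 and 38.5 CPM in septic proNeu2 (log2 fold change -1.37 ± 0.28 SE, edgeR adjusted p = 0.000765). Mrps18b had 11.04, 11.8 and 11.5 CPM in septic preNeu, against 30.2, 28.9 and 27.7 CPM in septic proNeu2 (log2 fold change -1.34 ± 0.23 SE, edgeR adjusted p = 9.38e-05). Mrps27 had 26.7, 18.2 and 18.0 CPM in septic preNeu, against 49.3, 42.2 and 54.1 CPM in septic proNeu2 (log2 fold change -1.20 ± 0.21 SE, edgeR adjusted p = 0.000147). All 3 genes separated the groups completely, as did Mrpl38, a large-subunit protein with a log2 fold change of -1.29 (edgeR adjusted p = 0.0095). The call on Mrpl38 was lost without septic preNeu replicate 1 (edgeR adjusted p = 0.0791). Calls on Mrpl12, Mrps18b and Mrps27 held in every fit that left out 1 library and in every other setting tried.

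On the monocyte path, 19 members fell at TpMo and 20 at Ly6Chi monocytes by edgeR, and 8 fell at cMoP. Counted in either direction, edgeR called 19 members at TpMo, 21 at Ly6Chi monocytes and 11 at cMoP. In either direction, DESeq2 called 28, 22 and 19 in the same order. From GMP to cMoP, 3 members rose and 8 fell, where 9.21% of genes tested rose and 7.96% fell, with a median log2 fold change of -0.19. Mrpl4, which lines the exit tunnel of the large subunit, had 166, 174 and 148 CPM in cMoP, against 97.3, 95.5 and 82.3 CPM in control GMP (log2 fold change 0.83 ± 0.12 SE, edgeR adjusted p = 4.58e-06). Mrpl10 and Mrpl9, large-subunit proteins with bacterial counterparts, rose by 0.64 and 0.73 on the log2 scale (edgeR adjusted p = 0.0013 and 0.0427). Mrpl45, which helps to anchor the ribosome at the inner membrane, had 60.9, 72.1 and 74.1 CPM in cMoP, against 114, 129 and 127 CPM in control GMP (log2 fold change -0.84 ± 0.20 SE, edgeR adjusted p = 0.00282). The other large falls were in Mrps11, a small-subunit protein, with a log2 fold change of -0.82 (edgeR adjusted p = 0.0452), Mrpl19 with -0.68 (edgeR adjusted p = 0.00402), and Mrpl41 with -0.64 (edgeR adjusted p = 0.0475). For Mrpl4, Mrpl9 and Mrpl10 all cMoP libraries lay above all GMP libraries, and for Mrpl45, Mrps11, Mrpl19 and Mrpl41 all lay below. The call on Mrpl9 was lost whichever of the 6 libraries was left out (edgeR adjusted p up to 0.144), and also with size factors and when scaled to total counts alone. The call on Mrps11 was lost whichever of the 6 libraries was left out (edgeR adjusted p up to 0.157), and also with no filter on low counts. For Mrpl41 the call was lost without control GMP replicate 1, control GMP replicate 3, cMoP replicate 1, cMoP replicate 2 or cMoP replicate 3 (edgeR adjusted p up to 0.253), and also with no filter on low counts, when only the compared libraries were fitted and without the 5 shallow libraries. In 11 members every cMoP library lay above every GMP library and in 27 every one lay below, where 19.5% and 19.2% of genes tested did so. Basophil and mast cell markers summed to 107 to 125 CPM in cMoP, against 7837 to 10883 CPM in control GMP, with 5 of 5 lower. Eosinophil markers, 6 of 6 lower, summed to 3.36 to 9.69 CPM in cMoP, against 4170.0 to 7662 CPM in control GMP. Dendritic cell markers, 5 of 5 tested lower, summed to 6.72 to 11.1 CPM in cMoP, against 2305 to 3259 CPM in control GMP; the part of these markers in the comparison was not tested. The count of 11 called members was 4 without control GMP replicate 3, 5 without cMoP replicate 3, 6 without control GMP replicate 1 or cMoP replicate 2, and 7 without cMoP replicate 1.

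From cMoP to TpMo, 19 members fell and 0 rose, where 8.56% of genes tested fell and 9.52% rose, and the median log2 fold change of the members was -0.46. In 51 members every TpMo library lay below every cMoP library, where 19.5% of genes tested did so. Mrps18b had 9.17, 9.76 and 12.1 CPM in TpMo, against 23.7, 21.9 and 22.6 CPM in cMoP (log2 fold change -1.14 ± 0.23 SE, edgeR adjusted p = 0.000444). Mrpl38 fell with a log2 fold change of -1.16 (edgeR adjusted p = 0.0163), Mrps28 with -0.91 (edgeR adjusted p = 0.0208) and Mrpl16, a protein near the tRNA binding sites of the large subunit, with -0.89 (edgeR adjusted p = 0.00683). None of the 4 genes had overlapping groups. The call on Mrpl38 was lost without TpMo replicate 1 (edgeR adjusted p = 0.0529). The call on Mrps28 was lost without cMoP replicate 2 or TpMo replicate 1 (edgeR adjusted p up to 0.0931), and also with no filter on low counts. For Mrpl16 the call was lost without TpMo replicate 2 (edgeR adjusted p = 0.0546). The count was 10 without TpMo replicate 2, and 42 lower with 0 higher when scaled to total counts alone, a scaling that moved the median of all genes to -0.19 and that of the members to -0.67. Summed dividing-cell markers were higher in TpMo, at 4896 to 5380.3 CPM in TpMo, against 2504 to 2829 CPM in cMoP; their part in the fall was not tested.

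From TpMo to Ly6Chi monocytes, 20 members fell and 1 rose, where 13.3% of genes tested fell and 7.59% rose, with a median log2 fold change of -0.27. Mrps22 had 11.5, 7.13 and 15.3 CPM in Ly6Chi monocytes, against 18.1, 29.8 and 32.5 CPM in TpMo (log2 fold change -1.21 ± 0.23 SE, edgeR adjusted p = 0.000234). Mrpl51, a mitochondria-specific large-subunit protein, had 14.7, 9.51 and 17.2 CPM in Ly6Chi monocytes, against 30.6, 37.5 and 28.9 CPM in TpMo (log2 fold change -1.21 ± 0.22 SE, edgeR adjusted p = 0.000103). In both genes the 3 monocyte libraries lay below all TpMo libraries. Mrpl13 fell with a log2 fold change of -1.10 (edgeR adjusted p = 0.000955) and Mrpl12 with -0.93 (edgeR adjusted p = 0.0166). Mrpl33 alone was called higher, with 61.9, 40.2 and 36.7 CPM in Ly6Chi monocytes, against 26.9, 26.1 and 29.0 CPM in TpMo (log2 fold change 0.76 ± 0.27 SE, edgeR adjusted p = 0.0457). The call on Mrpl13 was lost when only the compared libraries were fitted. For Mrpl12 the call was lost without Ly6Chi monocyte replicate 1 (edgeR adjusted p = 0.11), and also when only the compared libraries were fitted. The call on Mrpl33 was lost without TpMo replicate 1, TpMo replicate 2, TpMo replicate 3, Ly6Chi monocyte replicate 1 or Ly6Chi monocyte replicate 2 (edgeR adjusted p up to 0.318), and also with no filter on low counts, when only the compared libraries were fitted and without the 5 shallow libraries. The count was 13 lower without Ly6Chi monocyte replicate 2, and 9 lower when only the compared libraries were fitted. Dividing-cell markers went the opposite way to the step before, at 312 to 557 CPM in Ly6Chi monocytes, against 4896 to 5380.3 CPM in TpMo, with 10 of 10 lower. Dendritic cell markers summed to 213 to 909.7 CPM in Ly6Chi monocytes, against 21.1 to 28.4 CPM in TpMo, and 4 of 5 tested were higher: H2-Ab1, H2-Aa, H2-Eb1 and Cd74, genes of antigen presentation. The part of these markers in the changes of the members was not tested. Of the 19 members that fell in TpMo, 17 also fell at the control preNeu step, which is 89.5% of the first list and 34.0% of the 50 in the other, against 50 of all 77 members in the control preNeu list.

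**Figure D3:**
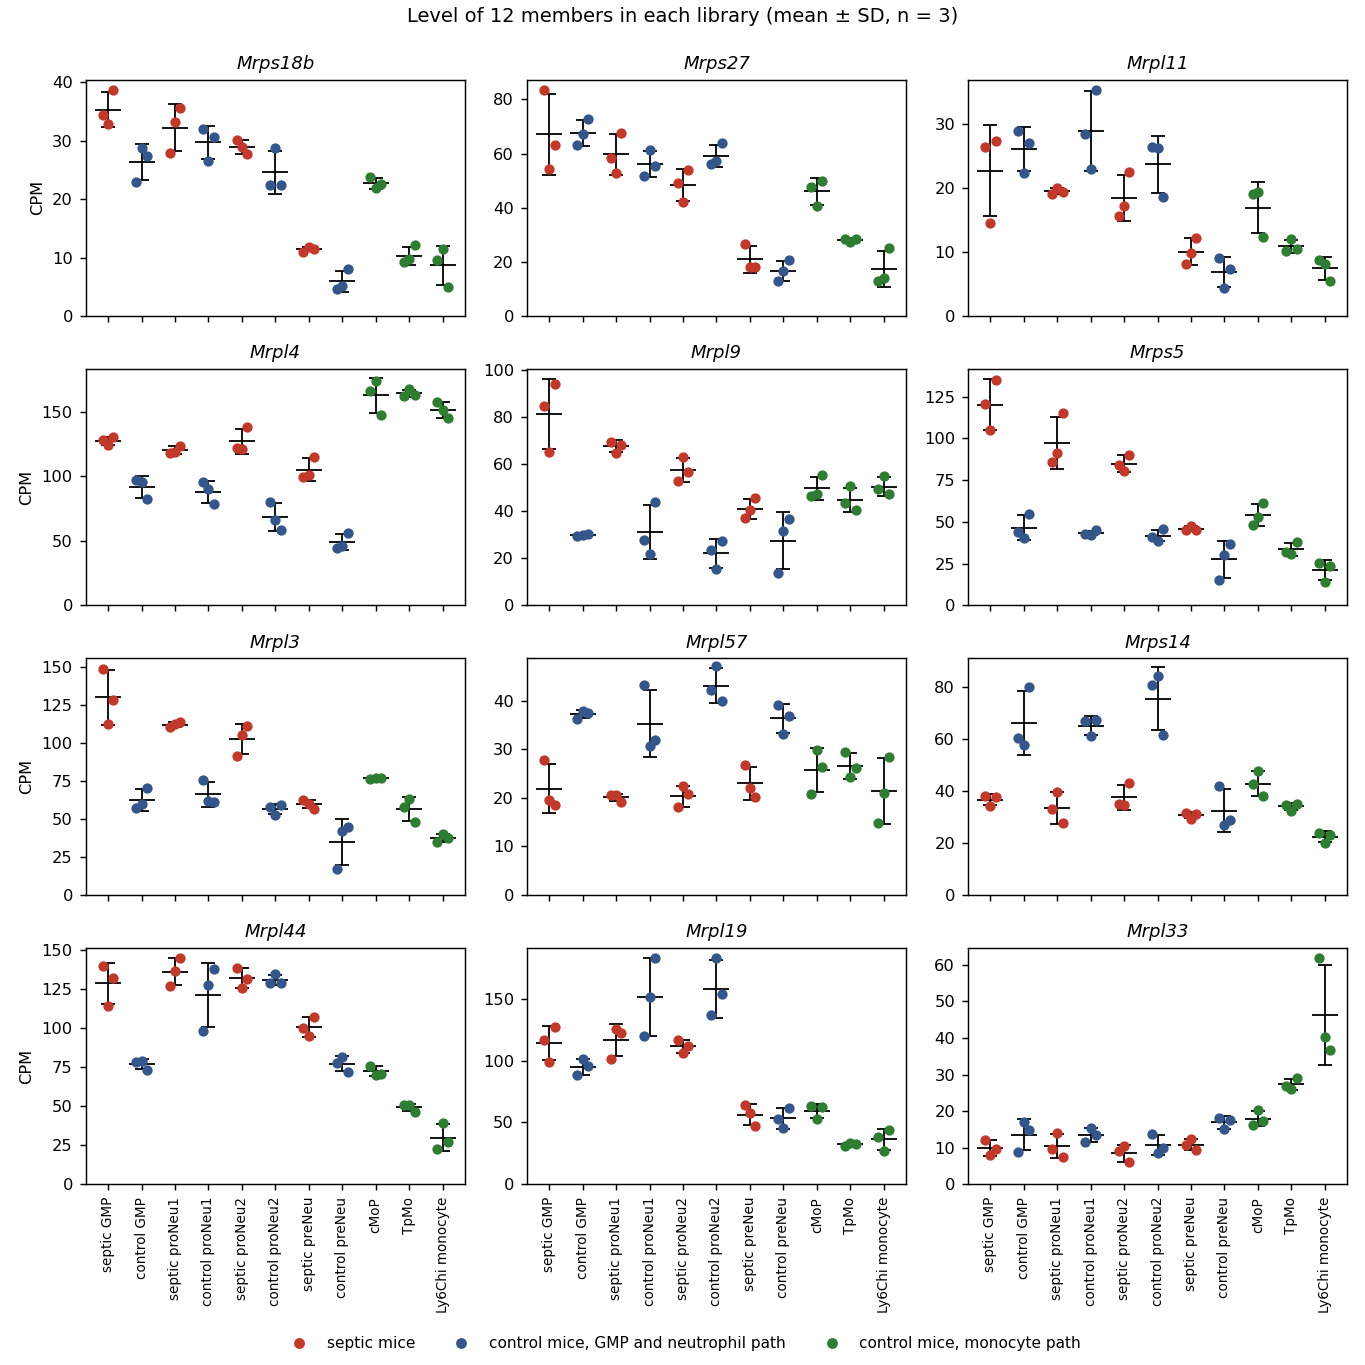
CPM (vertical axes, from 0) of 12 members in each library, by sorted group. Points are libraries, red for septic mice, blue for control GMP and neutrophil-path cells and green for the monocyte path; bars are means ± SD, n = 3. Mrps18b, Mrps27 and Mrpl11 are low in preNeu, TpMo and Ly6Chi monocytes, Mrpl9, Mrps5 and Mrpl3 are higher in septic progenitors, Mrpl57 and Mrps14 lower, and Mrpl4 is highest on the monocyte path.

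Set directly against each other, the early progenitors of the paths differed in 11 members, with 10 higher and 1 lower in control proNeu1 relative to cMoP, where 8.25% and 8.03% of genes tested were. Mrpl19 had 120.0, 152 and 184 CPM in control proNeu1, against 63.0, 53.0 and 62.3 CPM in cMoP (log2 fold change 1.35 ± 0.17 SE, edgeR adjusted p = 9.87e-07). Mrpl45, Mrpl41 and Mrpl44 were higher too, with log2 fold changes of 0.96 (edgeR adjusted p = 0.000824), 0.95 (edgeR adjusted p = 0.00332) and 0.75 (edgeR adjusted p = 0.000284). Only Mrpl4 was lower, with 95.4, 89.8 and 78.4 CPM in control proNeu1, against 166, 174 and 148 CPM in cMoP (log2 fold change -0.89 ± 0.12 SE, edgeR adjusted p = 1.89e-06). No group overlapped in any of these 5 genes. The split was 6 higher and 2 lower when scaled to total counts alone. It was 5 higher and 1 lower without control proNeu1 replicate 1, cMoP replicate 2 or cMoP replicate 3, 4 and 3 without control proNeu1 replicate 3, and 6 and 1 without cMoP replicate 1.

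Between the later precursors of the paths, 22 members were lower and 3 higher in control preNeu than in TpMo, where 15.1% and 13% of genes tested were. Mrpl4 had 44.8, 46.2 and 56.3 CPM in control preNeu, against 162, 167 and 163 CPM in TpMo, the largest separation among members above 10 CPM (log2 fold change -1.75 ± 0.12 SE, edgeR adjusted p = 2.04e-12). Mrpl16 and Mrpl2 followed, with log2 fold changes of -1.23 (edgeR adjusted p = 0.00024) and -1.17 (edgeR adjusted p = 2.88e-06), then Mrpl12 with -1.11 (edgeR adjusted p = 0.00361). The 3 higher members were Mrpl45, Mrpl19 and Mrpl44, with log2 fold changes of 0.99 (edgeR adjusted p = 0.000268), 0.70 (edgeR adjusted p = 0.00187) and 0.65 (edgeR adjusted p = 0.000645). Mrpl45 had 123, 67.6 and 80.4 CPM in control preNeu, against 53.3, 41.2 and 41.9 CPM in TpMo, with no overlap. Mrpl52, at a mean of 0.685 CPM in control preNeu and 3.93 CPM in TpMo, was called on few counts (log2 fold change -2.61 ± 0.65 SE, edgeR adjusted p = 0.00246). Fitting only the compared libraries left 8 lower and 3 higher, and the call on Mrpl12 was lost. The all-gene median moved to -0.27 when scaled to total counts alone.

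In sepsis some members rose and others fell in the same population. Septic GMP had 16 members higher and 5 lower than control GMP, where 10.3% and 7.42% of genes tested were, with a median log2 fold change of 0.13. Scaled to total counts alone, the split in GMP was 9 higher and 8 lower and the median 0.00, while the median of all genes moved to -0.14. Septic proNeu1 had 6 higher and 10 lower, where 8.30% and 7.30% of genes tested were, with a median of -0.15. Septic proNeu2 had 13 higher and 7 lower, where 9.45% and 7.57% were, with a median of -0.08. Septic preNeu had 13 higher and 1 lower, where 7.57% and 4.21% were, with a median of 0.38. In all, 25 members were higher in at least 1 population, 11 were lower in at least 1, 0 were both, and 41 had no call, where 18.7%, 14.9%, 0.962% and 67.3% of all genes tested had those patterns. The sign of the fold change was positive in all 4 populations for 24 members (31.2%) and negative in all 4 for 12 (15.6%), where 19.4% and 19.5% of all genes tested had the same. Averaged over the 4 effects, 27 members were higher and 17 lower, where 19.6% and 17.5% of genes tested were.

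These counts moved when single libraries were left out. The GMP split was 10 higher and 3 lower without septic GMP replicate 3, the proNeu1 split was 7 and 6 without septic proNeu1 replicate 1, and the proNeu2 split was 8 and 4 without control proNeu2 replicate 2. Without control preNeu replicate 3 the preNeu split was 22 higher and 0 lower, and fitting only the 6 preNeu libraries left 3 higher and 0 lower. Leaving out the 5 shallow libraries gave 4 higher and 4 lower in proNeu1.

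**Figure D4:**
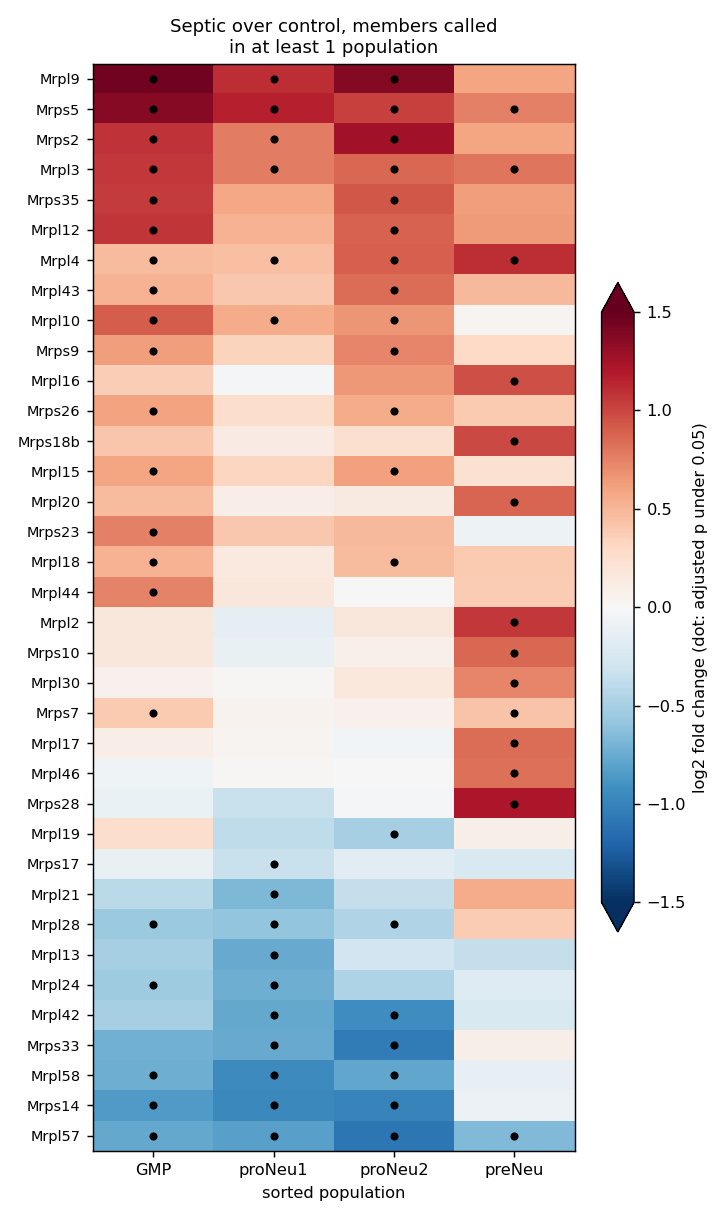
Log2 fold change, septic over control (colour; red higher, blue lower), in each of 4 sorted populations (columns) for the 36 members called in at least 1 population (rows, ordered by the mean of the 4 effects). Dots mark an adjusted p under 0.05. Mrpl9, Mrps5, Mrps2 and Mrpl3 are red in all columns, and Mrpl57, Mrps14, Mrpl58 and Mrpl42 lie at the blue end.

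Among members at 10 CPM or more, the largest mean rises were in Mrpl9, Mrps5, Mrps2 and Mrpl3. All 4 have bacterial counterparts, as do 45 of the 77 tested members. Below 10 CPM, Mrps6 had a mean log2 fold change of 1.03 (edgeR adjusted p = 0.00232). The mitochondria-specific Mrpl52, also below 10 CPM, had 0.89 (edgeR adjusted p = 0.0207). Mrpl9 had 85.0, 65.2 and 94.2 CPM in septic GMP, against 29.4, 29.9 and 30.5 CPM in control GMP (log2 fold change 1.44 ± 0.25 SE, edgeR adjusted p = 0.000135). In proNeu1 it had 69.6, 64.8 and 68.4 CPM in septic mice, against 27.97, 21.8 and 43.8 CPM in control mice (log2 fold change 1.11 ± 0.25 SE, edgeR adjusted p = 0.00285). In proNeu2 it had 53.0, 63.0 and 56.8 CPM in septic mice, against 23.5, 15.3 and 27.5 CPM in control mice (log2 fold change 1.38 ± 0.26 SE, edgeR adjusted p = 0.000271). None of these groups overlapped, while in preNeu the log2 fold change was 0.59 (edgeR adjusted p = 0.15). Mrps5, near the messenger RNA entry of the small subunit, was called higher in all 4 populations, with 121, 105 and 135 CPM in septic GMP, against 44.1, 40.5 and 54.7 CPM in control GMP (log2 fold change 1.37 ± 0.21 SE, edgeR adjusted p = 3.02e-05). Its log2 fold changes were 1.17 (edgeR adjusted p = 0.00033) in proNeu1, 1.02 (edgeR adjusted p = 0.00103) in proNeu2 and 0.76 (edgeR adjusted p = 0.0206) in preNeu. In preNeu the call on Mrps5 was lost without control preNeu replicate 1 or septic preNeu replicate 2 (edgeR adjusted p up to 0.16), and also when only the compared libraries were fitted.

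Mrpl3 also rose in all 4 populations, with 149, 113 and 128 CPM in septic GMP, against 57.1, 59.6 and 70.4 CPM in control GMP (log2 fold change 1.06 ± 0.20 SE, edgeR adjusted p = 0.000306). In the others its log2 fold changes were 0.76 (edgeR adjusted p = 0.00858) in proNeu1, 0.86 (edgeR adjusted p = 0.00274) in proNeu2 and 0.80 (edgeR adjusted p = 0.00853) in preNeu. Mrpl4 was the remaining member called higher in all 4, with 99.4, 101 and 115 CPM in septic preNeu, against 44.8, 46.2 and 56.3 CPM in control preNeu (log2 fold change 1.10 ± 0.12 SE, edgeR adjusted p = 1.91e-07). In GMP the change of Mrpl4 was smaller, at 0.47 (edgeR adjusted p = 0.00375), a call lost when scaled to total counts alone. In proNeu1 and proNeu2 the log2 fold changes of Mrpl4 were 0.45 (edgeR adjusted p = 0.00657) and 0.90 (edgeR adjusted p = 2.56e-06). Mrps2 rose in GMP, proNeu1 and proNeu2, with log2 fold changes of 1.09 (edgeR adjusted p = 0.000603), 0.77 (edgeR adjusted p = 0.0146) and 1.26 (edgeR adjusted p = 0.000142). In proNeu1 the call on Mrps2 was lost without control proNeu1 replicate 1 or control proNeu1 replicate 3 (edgeR adjusted p up to 0.0695), and also without the 5 shallow libraries. Mrpl12 rose in GMP, with 60.8, 44.5 and 61.5 CPM in septic mice, against 28.2, 23.3 and 27.9 CPM in control mice (log2 fold change 1.07 ± 0.27 SE, edgeR adjusted p = 0.00594). Mrps35, a mitochondria-specific small-subunit protein, had a log2 fold change of 0.93 (edgeR adjusted p = 0.0376) in proNeu2. The call on Mrps35 was lost without control proNeu2 replicate 2, control proNeu2 replicate 3, septic proNeu2 replicate 1, septic proNeu2 replicate 2 or septic proNeu2 replicate 3 (edgeR adjusted p up to 0.164), and also with no filter on low counts. The call on Mrpl3 in preNeu was lost when only the compared libraries were fitted.

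The largest mean fall was in Mrpl57, a mitochondria-specific large-subunit protein and the single member called lower in all 4 populations. Mrpl57 had 18.0, 22.3 and 20.7 CPM in septic proNeu2, against 42.2, 47.1 and 39.97 CPM in control proNeu2 (log2 fold change -1.08 ± 0.20 SE, edgeR adjusted p = 0.000346). In the other populations its log2 fold changes were -0.77 (edgeR adjusted p = 0.00761) in GMP, -0.81 (edgeR adjusted p = 0.0067) in proNeu1 and -0.66 (edgeR adjusted p = 0.0336) in preNeu. The septic libraries lay below all control libraries in each of the 4 populations. In GMP the call on Mrpl57 was lost without septic GMP replicate 3 (edgeR adjusted p = 0.0603). In proNeu1 it was lost without control proNeu1 replicate 1 (edgeR adjusted p = 0.0546), and also without the 5 shallow libraries. In preNeu it was lost without control preNeu replicate 1, control preNeu replicate 3, septic preNeu replicate 2 or septic preNeu replicate 3 (edgeR adjusted p up to 0.151), and also when scaled to total counts alone, with no filter on low counts, when only the compared libraries were fitted and without the 5 shallow libraries. Mrps14, a small-subunit protein with a bacterial counterpart, had 38.02, 34.2 and 37.9 CPM in septic GMP, against 60.5, 57.7 and 80.3 CPM in control GMP (log2 fold change -0.85 ± 0.17 SE, edgeR adjusted p = 0.000647). It fell in proNeu1 and proNeu2 as well, with log2 fold changes of -0.96 (edgeR adjusted p = 0.000261) and -1.01 (edgeR adjusted p = 0.000109), whereas in preNeu the value was -0.08 (edgeR adjusted p = 0.846). In GMP, proNeu1 and proNeu2 the septic and control libraries of Mrps14 did not overlap.

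Mrpl58 had log2 fold changes of -0.73 (edgeR adjusted p = 0.019) in GMP and -0.95 (edgeR adjusted p = 0.00327) in proNeu1. In proNeu1 Mrpl58 had 16.4, 23.7 and 17.4 CPM in septic mice, against 33.7, 31.7 and 46.2 CPM in control mice, without overlap. Its call in GMP was lost without control GMP replicate 2, control GMP replicate 3, septic GMP replicate 1 or septic GMP replicate 2 (edgeR adjusted p up to 0.0816). Mrpl42, a mitochondria-specific large-subunit protein, fell in proNeu1 (log2 fold change -0.77 ± 0.21 SE, edgeR adjusted p = 0.0111) and in proNeu2 (log2 fold change -0.93 ± 0.21 SE, edgeR adjusted p = 0.00207). In proNeu1 the call on Mrpl42 was lost without control proNeu1 replicate 2 (edgeR adjusted p = 0.0605), and also without the 5 shallow libraries. Mrps33, a mitochondria-specific small-subunit protein, had 11.5, 11.02 and 9.89 CPM in septic proNeu2, against 24.1, 24.7 and 18.0 CPM in control proNeu2 (log2 fold change -1.04 ± 0.26 SE, edgeR adjusted p = 0.00485). In GMP the next largest fall was that of Mrpl28, with 127, 114 and 137 CPM in septic GMP, against 174, 183 and 199 CPM in control GMP (log2 fold change -0.56 ± 0.15 SE, edgeR adjusted p = 0.00935). The call on Mrpl28 was lost without septic GMP replicate 2 (edgeR adjusted p = 0.0589). For Mrps33 in proNeu2 and Mrpl28 in GMP the septic libraries lay below all control libraries.

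Promoters of the members with the largest rises and of the member that fell throughout are shown to set beside these opposite directions (RefSeq, GRCm38.p6, 5′ to 3′ on the strand of the gene). They are Mrpl9 (chr3:94443086-94443385, plus strand), Mrps5 (chr2:127587176-127587475, plus strand) and Mrpl57 (chr14:57825989-57826288, plus strand). Capitals mark CCGGAAG as before and the NRF1 palindrome, which is GCGC, then A and any base, then GCGC. Mrpl57, which fell, holds both, Mrpl9, which rose, holds the NRF1 letters, and Mrps5, which rose, holds neither.
Mrpl9: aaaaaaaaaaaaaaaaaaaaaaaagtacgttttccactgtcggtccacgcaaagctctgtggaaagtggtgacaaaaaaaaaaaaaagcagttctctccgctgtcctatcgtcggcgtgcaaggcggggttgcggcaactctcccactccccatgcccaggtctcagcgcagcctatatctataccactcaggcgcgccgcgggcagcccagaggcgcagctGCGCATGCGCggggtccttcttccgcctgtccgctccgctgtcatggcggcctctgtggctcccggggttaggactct
Mrps5: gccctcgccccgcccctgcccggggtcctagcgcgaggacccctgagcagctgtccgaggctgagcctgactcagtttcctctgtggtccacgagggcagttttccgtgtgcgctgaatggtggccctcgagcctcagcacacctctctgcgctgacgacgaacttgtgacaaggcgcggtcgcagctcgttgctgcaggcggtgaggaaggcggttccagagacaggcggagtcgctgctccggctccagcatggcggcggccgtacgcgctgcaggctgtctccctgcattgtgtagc
Mrpl57: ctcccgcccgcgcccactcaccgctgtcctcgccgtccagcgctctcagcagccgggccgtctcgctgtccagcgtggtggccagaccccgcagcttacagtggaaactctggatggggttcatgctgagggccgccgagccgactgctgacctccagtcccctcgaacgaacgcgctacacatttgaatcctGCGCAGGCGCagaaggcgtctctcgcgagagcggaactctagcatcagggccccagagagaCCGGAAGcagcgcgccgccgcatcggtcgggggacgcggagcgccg

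In preNeu the largest rises at 10 CPM or more were in Mrpl4, described above, Mrpl2, Mrps18b and Mrpl16. Mrpl2 had 33.2, 39.8 and 57.2 CPM in septic preNeu, against 24.97, 17.3 and 19.4 CPM in control preNeu (log2 fold change 1.06 ± 0.17 SE, edgeR adjusted p = 7.65e-05). Mrps18b had 11.04, 11.8 and 11.5 CPM in septic preNeu, against 4.62, 5.15 and 8.02 CPM in control preNeu (log2 fold change 0.99 ± 0.24 SE, edgeR adjusted p = 0.00523). Mrpl16 had 15.6, 19.0 and 18.2 CPM in septic preNeu, against 8.72, 5.92 and 13.1 CPM in control preNeu (log2 fold change 0.96 ± 0.24 SE, edgeR adjusted p = 0.00861). The 3 septic libraries were above all control libraries in each of these genes. The call on Mrpl16 was lost without control preNeu replicate 2 (edgeR adjusted p = 0.074), and also when only the compared libraries were fitted. The call on Mrps18b was lost when only the compared libraries were fitted. A test added after the values were seen asked whether the preNeu step itself differed between septic and control mice, and 3 members were called higher and 0 lower, where 1.92% and 1.64% of genes tested were. They were Mrps14, with a difference in log2 fold change of 0.92 (edgeR adjusted p = 0.0299), Mrpl2 with 0.89 (edgeR adjusted p = 0.0289) and Mrpl28 with 0.83 (edgeR adjusted p = 0.0255). Each call was lost in 5 to 7 of the 12 fits that left out 1 library, all 3 without control proNeu2 replicate 2, control preNeu replicate 2, septic proNeu2 replicate 1 or septic preNeu replicate 3. The count ranged from 0 to 8 over those fits and was 8 without control preNeu replicate 3.

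Whether the sepsis effect differed among the 4 populations was tested directly, and 6 of 77 members were called, where 6.34% of genes tested were. The lowest p belonged to Mrpl2 (edgeR adjusted p = 0.00636), whose log2 fold changes were 0.17 for GMP, -0.14 for proNeu1, 0.17 for proNeu2 and 1.06 for preNeu. Mrpl28 followed (edgeR adjusted p = 0.00793), with -0.56, -0.60, -0.45 and 0.38 in the same order. Mrpl4 (edgeR adjusted p = 0.0176) and Mrpl21 (edgeR adjusted p = 0.0202) came next, and Mrpl21 had log2 fold changes of -0.40, -0.67, -0.36 and 0.56. In each of these 4 members the preNeu value was the highest of the 4 populations, whereas in Mrpl10, the next by p (edgeR adjusted p = 0.0265), it was the lowest, at 0.04. The count was 3 without control preNeu replicate 2, septic preNeu replicate 2 or septic preNeu replicate 3.

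Other cell-type markers moved with sepsis in the same libraries. All 5 tested dendritic cell markers were lower in septic GMP, summing to 14.1 to 17.8 CPM in septic GMP, against 2305 to 3259 CPM in control GMP. All 5 basophil and mast cell markers were lower as well, at 388 to 1152 CPM in septic GMP, against 7837 to 10883 CPM in control GMP, and none of the 5 was at 0 in either group. Eosinophil markers, of which 1 of 6 was called higher and 0 lower, summed to 2299.7 to 4453 CPM in septic GMP, against 4170.0 to 7662 CPM in control GMP. In proNeu1, 2 of 6 tested B cell markers were lower. The list summed to 42.7 to 78.2 CPM in septic proNeu1, against 967 to 2066 CPM in control proNeu1. These markers, Jchain and Igkc, were called lower in each of the 4 populations. So were Hdc, Cpa3 and Prss34 of the basophil and mast cell list. In proNeu2, 5 of 6 eosinophil markers were higher, summing to 93.3 to 211 CPM in septic proNeu2, against 24.7 to 37.2 CPM in control proNeu2. In preNeu, 5 of 8 monocyte markers were higher and 0 lower, summing to 1947 to 2677 CPM in septic preNeu, against 707 to 1604 CPM in control preNeu, and none was at 0 in either group. Csf1r, a cytokine receptor of monocytes and macrophages, rose there with a log2 fold change of 2.64 (edgeR adjusted p = 0.000389), and Ccr2, a chemokine receptor of monocytes, with 4.42 (edgeR adjusted p = 2.14e-07). Macrophage markers were mixed: Adgre1 rose with 1.39 (edgeR adjusted p = 0.00766) and Vcam1 fell with -2.13 (edgeR adjusted p = 0.000393). Mrc1, C1qa, C1qb and C1qc were not called. The macrophage list summed to 105 to 129 CPM in septic preNeu, against 232 to 369 CPM in control preNeu. Mrpl4, which led the rises in preNeu, was 1 of the 22 members lower in control preNeu than in TpMo, while 3 were higher. Monocyte markers summed to 12929 to 13515 CPM in TpMo. The part of all these markers in the changes of the mitochondrial ribosomal genes was not tested.

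The ratio of summed large-subunit to summed small-subunit transcripts differed between septic and control libraries in the progenitors. The summed CPM of the large-subunit members over that of the small-subunit members, a ratio not corrected for gene length, was 2.09 to 2.24 in septic GMP, against 2.32 to 2.43 in control GMP. It was 2.19 to 2.31 in septic proNeu1, against 2.38 to 2.50 in control proNeu1, and 2.26 to 2.36 in septic proNeu2, against 2.47 to 2.65 in control proNeu2. The groups were apart in these 3 populations and overlapped in preNeu, at 2.46 to 2.68 in septic preNeu, against 2.34 to 2.83 in control preNeu. Along the monocyte path the ratio was 2.25 to 2.33 for cMoP, 2.37 to 2.56 for TpMo and 2.64 to 2.77 for Ly6Chi monocytes, with no overlap between neighbours. By call, sepsis left 9 large-subunit members higher and 4 lower and 7 small-subunit members higher and 1 lower in GMP, and 8 and 1 against 5 and 0 in preNeu. In proNeu1 there were 4 large-subunit members higher and 7 lower and 2 small-subunit members higher and 3 lower, and in proNeu2 8 and 5 against 5 and 2. A ratio of sums follows the most abundant members. Median log2 fold changes, septic over control, were 0.143 for large-subunit and 0.141 for small-subunit members in GMP. In the same order they were -0.145 and -0.133 in proNeu1, -0.149 and -0.039 in proNeu2, and 0.323 and 0.371 in preNeu. The ratios were not tested.

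**Figure D5:**
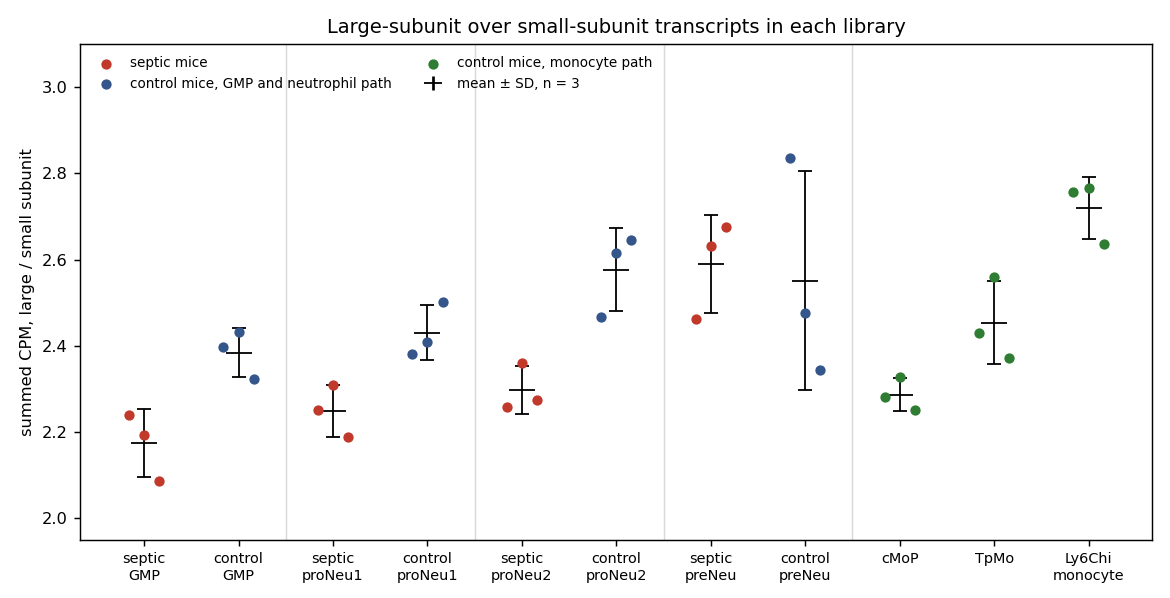
Summed CPM of the large-subunit members divided by that of the small-subunit members (vertical axis, which does not start at 0) in each library, by sorted group. Points are libraries, red for septic mice, blue for control GMP and neutrophil-path cells and green for the monocyte path; bars are means ± SD, n = 3. Septic GMP, proNeu1 and proNeu2 lie below their controls, and the ratio is higher at each step from cMoP to Ly6Chi monocytes.

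At the control preNeu step, 28 of 45 tested members with a bacterial counterpart fell, and so did 18 of 28 mitochondria-specific members. RefSeq (GRCm38.p6) lists a promoter for 69 of the 78 members; those without one were Mrpl13, Mrpl15, Mrpl19, Mrpl38, Mrpl4, Mrpl54, Mrps28, Mrps34 and Mrps35. On either strand, CCGGAAG was in 26 of the 69 windows (37.7%), against 9.93% of all listed promoters and 19.2% of those of the genes tested. The NRF1 palindrome was in 13 (18.8%), against 5.19% and 10.7%, and AAGATGGCG in 8 (11.6%), against 1.64% and 3.34%. The E-box CACGTG was in 5 (7.25%), against 8.09% and 11.3%, and the TATA-box letters TATAAA were in 5 (7.25%), against 15.7% and 9.21%. At least 1 of the first 3 motifs was in 41 (59.4%), against 15.1% and 29.5%. The median log2 fold change at the control preNeu step was -0.58 for the 25 tested members with CCGGAAG and -0.96 for the 43 without, and for the NRF1 palindrome it was -0.58 for the 13 with it and -0.99 for the 55 without. For AAGATGGCG the order was the other way, at -1.10 for the 8 with it and -0.74 for the 60 without. These are matches of letters and not known binding sites.

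In 35 members another tested gene starts within 1000 bases on the other strand. One such pair lies within the family: Mrps11 of the small subunit and Mrpl46 of the large subunit start next to each other on opposite strands, and their exons share 173 bases. Their windows, shown because the start regions of these members overlap, are Mrps11 (chr7:78782881-78783180, plus strand) and Mrpl46 (chr7:78783040-78783339, minus strand), with the YY1 letters in capitals.
Mrps11: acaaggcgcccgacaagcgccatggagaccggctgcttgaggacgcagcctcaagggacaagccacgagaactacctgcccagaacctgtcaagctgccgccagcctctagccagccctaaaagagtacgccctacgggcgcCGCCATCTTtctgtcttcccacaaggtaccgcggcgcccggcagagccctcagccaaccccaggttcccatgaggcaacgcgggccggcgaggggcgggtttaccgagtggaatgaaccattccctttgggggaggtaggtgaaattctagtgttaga
Mrpl46: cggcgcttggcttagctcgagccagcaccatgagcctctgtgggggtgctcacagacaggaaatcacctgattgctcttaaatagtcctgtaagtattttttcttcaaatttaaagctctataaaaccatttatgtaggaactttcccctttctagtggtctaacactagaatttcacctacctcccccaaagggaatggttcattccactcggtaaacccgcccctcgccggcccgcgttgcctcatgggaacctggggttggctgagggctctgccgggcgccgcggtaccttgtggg

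Both genes fell at the control preNeu step: Mrps11 had 18.9, 8.77 and 16.4 CPM in control preNeu, against 35.3, 37.5 and 22.2 CPM in control proNeu2 (log2 fold change -1.11 ± 0.29 SE, edgeR adjusted p = 0.00378). Mrpl46 had 14.5, 14.3 and 16.4 CPM in control preNeu, against 38.6, 40.9 and 42.8 CPM in control proNeu2 (log2 fold change -1.44 ± 0.19 SE, edgeR adjusted p = 7.82e-07). Neither gene overlapped between the groups at this step. Under sepsis their fold changes had opposite signs in the mean of the 4 effects: Mrps11 fell on average (log2 fold change -0.50 ± 0.14 SE, edgeR adjusted p = 0.00609), whereas Mrpl46 had a mean log2 fold change of 0.19 (edgeR adjusted p = 0.0977). In preNeu, Mrpl46 rose (log2 fold change 0.82 ± 0.19 SE, edgeR adjusted p = 0.00331). The pair was singled out after its values were seen. Without strand, reads from the shared bases cannot be assigned to 1 gene of the pair, and the strand setting of the counting is not given in the sources used here. Across the family, 32 members share exon bases with another gene and 16 share more than 10%, among them Mrps25 with Nr2c2 (69.8%), the pairs of Mrps34 and Mrpl19 given above, and Mrpl24 with Rrnad1 (26.3%). Tcp1, which shares 10.1% of the exon bases of Mrpl18, had 5.49 times the mean count of Mrpl18.

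Genes that work with the mitochondrial ribosome were taken from lists chosen by function. At the control preNeu step, 3 of 5 ribosomal proteins under other names fell and 0 rose. The largest falls were in Gadd45gip1, with a log2 fold change of -1.27 (edgeR adjusted p = 0.011), and Ptcd3, with -1.13 (edgeR adjusted p = 9.77e-07). Of 25 assembly factors 9 fell and 2 rose, led by Rcc1l with -2.80 (edgeR adjusted p = 4.69e-05) and the ribosomal RNA methyltransferase Mrm3 with -2.47 (edgeR adjusted p = 2.06e-07). The 2 that rose were Mterf4, at 1.01 (edgeR adjusted p = 0.00628), and Rbfa, at 0.66 (edgeR adjusted p = 0.000815). Of 16 translation factors and messenger RNA partners 8 fell and 0 rose, among them the initiation factor Mtif2 with -1.39 (edgeR adjusted p = 0.000112) and the initiator tRNA formyltransferase Mtfmt with -1.24 (edgeR adjusted p = 0.000311). Of 20 mitochondrial aminoacyl-tRNA synthetases and amidotransferase subunits 8 fell and 0 rose, led by Nars2 with -2.21 (edgeR adjusted p = 0.000376) and Ears2 with -2.01 (edgeR adjusted p = 0.0238). Of 14 genes of mitochondrial DNA and RNA synthesis 10 fell and 1 rose, led by the transcription elongation factor Tefm with -1.64 (edgeR adjusted p = 0.00349) and 1110008L16Rik, the RNase P nuclease, with -1.504 (edgeR adjusted p = 0.00172), whereas the DNA polymerase Polg rose with 0.81 (edgeR adjusted p = 0.0283). Of all genes tested, 14.7% fell and 13.1% rose at this step, as given above.

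Among 11 tested regulators, 2 fell and 3 rose at the control preNeu step: the coactivator Ppargc1b fell with a log2 fold change of -3.81 (edgeR adjusted p = 0.00849) and Myc with -2.16 (edgeR adjusted p = 3.09e-06), while Nrf1 rose with 1.05 (edgeR adjusted p = 5.81e-06) and Gabpa, an ETS factor, with 0.70 (edgeR adjusted p = 0.00108). Of the 13 proteins encoded by the mitochondrial genome 6 fell and 0 rose, led by mt-Atp8 with -1.73 (edgeR adjusted p = 0.028) and mt-Cytb with -1.63 (edgeR adjusted p = 0.000556). Of the mitochondrial ribosomal RNAs, mt-Rnr2, of the large subunit, rose with 1.02 (edgeR adjusted p = 0.0185), and mt-Rnr1 had a log2 fold change of 0.18 (edgeR adjusted p = 0.73). Libraries made from polyadenylated RNA capture ribosomal RNA only in part.

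Averaged over the 4 sepsis effects, 8 of 16 translation factors rose and 0 fell, where 19.6% of genes tested rose and 17.5% fell. They were led by the elongation factors Gfm1, with a mean log2 fold change of 1.18 (edgeR adjusted p = 1.37e-10), and Tufm, with 1.02 (edgeR adjusted p = 1.98e-11). Of 25 assembly factors 7 rose and 0 fell, led by the GTPase Noa1 with 1.10 (edgeR adjusted p = 1.99e-07) and Fastkd2 with 0.63 (edgeR adjusted p = 1.13e-05). Of the 5 ribosomal proteins under other names, Dap3, of the small subunit, rose with 0.60 (edgeR adjusted p = 1.12e-08) and Chchd1 fell with -0.46 (edgeR adjusted p = 0.005). The synthetases split into 5 higher and 4 lower, with Iars2 at 0.67 (edgeR adjusted p = 0.000402) and Aars2 at 0.66 (edgeR adjusted p = 0.000369), and Lars2 at -1.01 (edgeR adjusted p = 2.53e-05) and Hars2 at -0.48 (edgeR adjusted p = 0.000679). DNA and RNA synthesis genes split into 3 higher and 4 lower, with Elac2 at 0.57 (edgeR adjusted p = 0.000518) and Tfb2m at 0.55 (edgeR adjusted p = 2.58e-05), and Mterf1a at -1.14 (edgeR adjusted p = 4.54e-05) and Hsd17b10 at -1.01 (edgeR adjusted p = 1.89e-08). Of 11 regulators 4 rose and 0 fell, among them Atf4, a stress-response factor, with 1.09 (edgeR adjusted p = 1.46e-10) and Gabpa with 0.40 (edgeR adjusted p = 0.000144). Mitochondrially encoded proteins split into 3 higher and 3 lower, and mt-Rnr2 rose with 1.42 (edgeR adjusted p = 6.41e-08), while mt-Rnr1 had a mean log2 fold change of -0.10 (edgeR adjusted p = 0.716).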

How the data were processed

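Whole-number counts per gene in 33 libraries were deposited by the authors as 1 table. Per the labels' protocols, RNA of sorted cells (median RIN 9.4) was amplified by SMARTSeq v2, made into Nextera XT libraries and sequenced as read pairs on an Illumina HiSeq. Per the submitters' processing notes, reads were processed with STAR and featureCounts on GRCm38; versions, the strand setting and the handling of mates are not given in the sources used here. Of counts from 1 to 10, 76.2% were even. ERCC spike-in RNA was added per the labels, and the table has 0 spike-in rows, so levels are relative. One model held all 33 libraries, fitted in edgeR 4.0.16 (R 4.3.3) after filterByExpr and TMM scaling, with robust quasi-likelihood tests, 22 residual degrees of freedom and a biological coefficient of variation of 0.472; p-values were adjusted by Benjamini-Hochberg over 18198 genes per test and called under 0.05. The steps were tested on simulated data. Alternatives were size factors and DESeq2 1.42.0, total counts alone, no filter, a filter of 1 CPM in 6 libraries, only the libraries compared, each library left out, and, added after seeing the data, leaving out the 5 shallowest libraries. The text names, per comparison, up to 4 called members with the largest rise and 4 with the largest fall at a mean of at least 10 CPM in the higher group, the 4 with the lowest p for a difference among sepsis effects, the 4 extremes per kilobase, Mrpl53 and a panel chosen by role; of each other list, up to 2 per direction. Members, lists and panel were chosen with earlier results of these data known. Mitochondrial ribosomal proteins with other names were counted apart, and RefSeq promoters were matched by symbol.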

Additional observations from a re-analysis of the deposited data

Results flagged for a closer look

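The members below were picked out because edgeR's test of a difference among the 4 sepsis effects passed an adjusted p of 0.05. Mrpl2 had an edgeR adjusted p of 0.00636, with the value in preNeu above the other 3, and Mrpl28 had 0.00793, with falls called in GMP, proNeu1 and proNeu2 and not in preNeu. For Mrpl4 the edgeR adjusted p was 0.0176, with a rise called in each population, at log2 fold changes of 0.47 for GMP, 0.45 for proNeu1, 0.90 for proNeu2 and 1.10 for preNeu. Mrpl21 had 0.0202, Mrpl10 had 0.0265, with log2 fold changes of 0.91 for GMP, 0.56 for proNeu1, 0.66 for proNeu2 and 0.04 for preNeu, and Mrps14 had 0.0406. Because 6 of 77 members passed where 6.34% of genes tested did, the share among members was near that of all genes.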

How the results depend on the processing

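The control preNeu fall, the septic preNeu fall and the mean sepsis effect kept their main direction in every alternative; counts of called members that moved by over 1.5 times or changed their leading direction are given here, and the cause was not tested. Scaled to total counts alone, the counts were 1 for proNeu1 against GMP, 42 for TpMo against cMoP and 5 for the difference between the preNeu steps of septic and control mice. With no filter on low counts they were 1 for proNeu2 against proNeu1, 7 for cMoP against GMP, 18 for septic preNeu against septic proNeu2, 7 for proNeu1 against cMoP, 2 for the test that the sepsis effects differ and 1 for the difference of steps, which a stricter filter raised to 6. DESeq2 gave 5, 19 and 18 for proNeu2 against proNeu1, cMoP against GMP and proNeu1 against cMoP, 15 for the sepsis effects and 12 for the difference of steps. Fitting only the libraries compared gave 0 for proNeu2 against proNeu1, 31 for TpMo against cMoP, 9 for Ly6Chi monocytes against TpMo, 3 for septic against control preNeu, 1 for septic proNeu2 against septic proNeu1, 11 for preNeu against TpMo and 0 for the difference of steps. Leaving out the 5 shallow libraries, a choice made after seeing the data, gave 1 for proNeu2 against proNeu1 and 8 for septic against control proNeu1. Leaving out 1 library at a time gave 1 to 2 called members for proNeu1 against GMP, 0 to 3 for proNeu2 against proNeu1, 47 to 52 for preNeu against proNeu2, 4 to 8 for cMoP against GMP, 10 to 17 for TpMo against cMoP and 13 to 22 for Ly6Chi monocytes against TpMo. For sepsis it gave 13 to 19 in GMP, 12 to 16 in proNeu1, 12 to 19 in proNeu2, 10 to 22 in preNeu, 38 to 42 for the mean effect and 3 to 9 for the difference among effects. It gave 0 and 0 for the first septic steps, 15 to 24 for septic preNeu against septic proNeu2, 6 to 9 for proNeu1 against cMoP, 17 to 30 for preNeu against TpMo and 0 to 8 for the difference of steps. No paired analysis was possible because the labels number no replicates, and the numbers used here follow accession order only. With 3 libraries a group, small changes could be missed: in counts simulated from these libraries with 200 changed genes, the test recovered 54% of the 2-fold changes for preNeu against proNeu2 and 49% for Ly6Chi monocytes against TpMo. The changed genes were drawn only from those above the median level, so recovery among genes at lower levels was not measured.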

Other observations

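The transcripts that the mitochondrial ribosome translates varied widely between libraries of a group. Summed over the 13 mitochondrially encoded proteins, septic libraries 1, 2 and 3 had 21263, 10916 and 10071 CPM in GMP, 16172, 10092 and 10642 CPM in proNeu1, 21656, 11712 and 12369 CPM in proNeu2 and 14429, 8804 and 9001 CPM in preNeu. Control libraries had 14409, 13789.5 and 14852 CPM in GMP, 14292, 13992 and 10172 CPM in proNeu1, 17656, 17584 and 13868 CPM in proNeu2 and 10805, 7482 and 8450.3 CPM in preNeu. In each septic group the library numbered 1 was the highest, and the numbers follow accession order, so nothing in the labels ties these libraries together. Summed mitochondrial ribosomal RNA was also highest in those libraries, for example 2973, 1627 and 1815 CPM in septic proNeu2, against 631, 483 and 518 CPM in control proNeu2. The summed nuclear members did not follow: in septic GMP, proNeu1, proNeu2 and preNeu library 1 was never the highest of its group. This pattern was noticed after the values were seen and was not tested.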
